A study of Mus musculus with 8 samples.

Results

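The SOCS genes measured here (Cish, Socs1, Socs2, Socs3 and Socs5) encode feedback inhibitors of cytokine signalling, and Stat3, Stat5a and Stat5b encode transcription factors that carry cytokine signals to the nucleus. These 8 genes were chosen by symbol, and the rule took every array probe annotated to them, which gave 10 probes. All 8 had a probe, out of 14776 named genes on the array. Of the 10 probes, 8 were bright enough on average to be tested, and these stand for 7 genes. Stat5b and 1 of the 2 Socs5 probes lay below that limit and are given as values.

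When a cytokine binds its receptor, Janus kinases phosphorylate STAT proteins, which enter the nucleus and switch on target genes. Among these targets are the SOCS genes, whose proteins bind the receptor or the kinase through an SH2 domain and, through a SOCS box, recruit a ubiquitin ligase, so that the signal limits itself. In T cells STAT5 relays cytokines that bind the common gamma chain, and Cish and Socs2 are known as STAT5 targets, whereas STAT3 relays IL-6, IL-10 and IL-21 and is known to induce Socs3.

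The samples were virus-specific effector CD8+ T cells from mouse spleen, sorted with the DbGP33-41 and DbNP396-404 tetramers at day 8 after infection with LCMV-Armstrong, the strain that causes an acute infection. WT samples came from wildtype littermates and CKO samples from mice of the genotype Blimp-1flox/flox x GranzymeB-cre+, in which Cre is driven by the granzyme B promoter and so acts in activated cytotoxic cells. Each group held 4 samples with 1 array each, and no source used here gives the ages of the mice. The design text calls the samples independent without naming animals, and the spread behind each p-value may therefore be technical in part.

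Values are log2 signals between 5.33 and 15.15, with an array median of 6.15, so a change in a probe near that median may be understated. Prdm1, which encodes Blimp-1, had 2 probes of opposite direction: one went from 7.78 ± 0.27 in WT to 6.50 ± 0.15 in CKO and the other from 5.81 ± 0.22 to 9.01 ± 0.29 (SD, n = 4 each). No source used here places these probes relative to the deleted part, so they do not check the labels. Some samples stood apart. The 18S ribosomal RNA signal was 11.2 in WT2 and 10.8 in CKO2, against 12.5 to 13.0 in the other samples. The Y-linked transcript Eif2s3y was at 10.5 in WT1 and 10.9 in CKO1 and at 5.73 to 6.52 elsewhere. Erythroid transcripts were high in all WT samples and in CKO1 and low in CKO2, CKO3 and CKO4, with values given at the end.

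Of the 8 tested probes, 2 were lower in CKO (Cish and Socs2), 1 was higher (Socs3) and 5 did not pass the test. The test was limma's moderated test with Benjamini-Hochberg adjustment over all 11991 probes tested and a threshold of 0.05. By the same rule 2.54% of all tested probes were lower, 4.13% higher and 6.67% changed in either direction. The 3 that passed were also the 3 of 8 whose WT and CKO samples did not overlap, which held for 13.7% of all tested probes. The list was drawn up with earlier results on some of its genes known, so the count of members is a description.

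**Figure D1:**
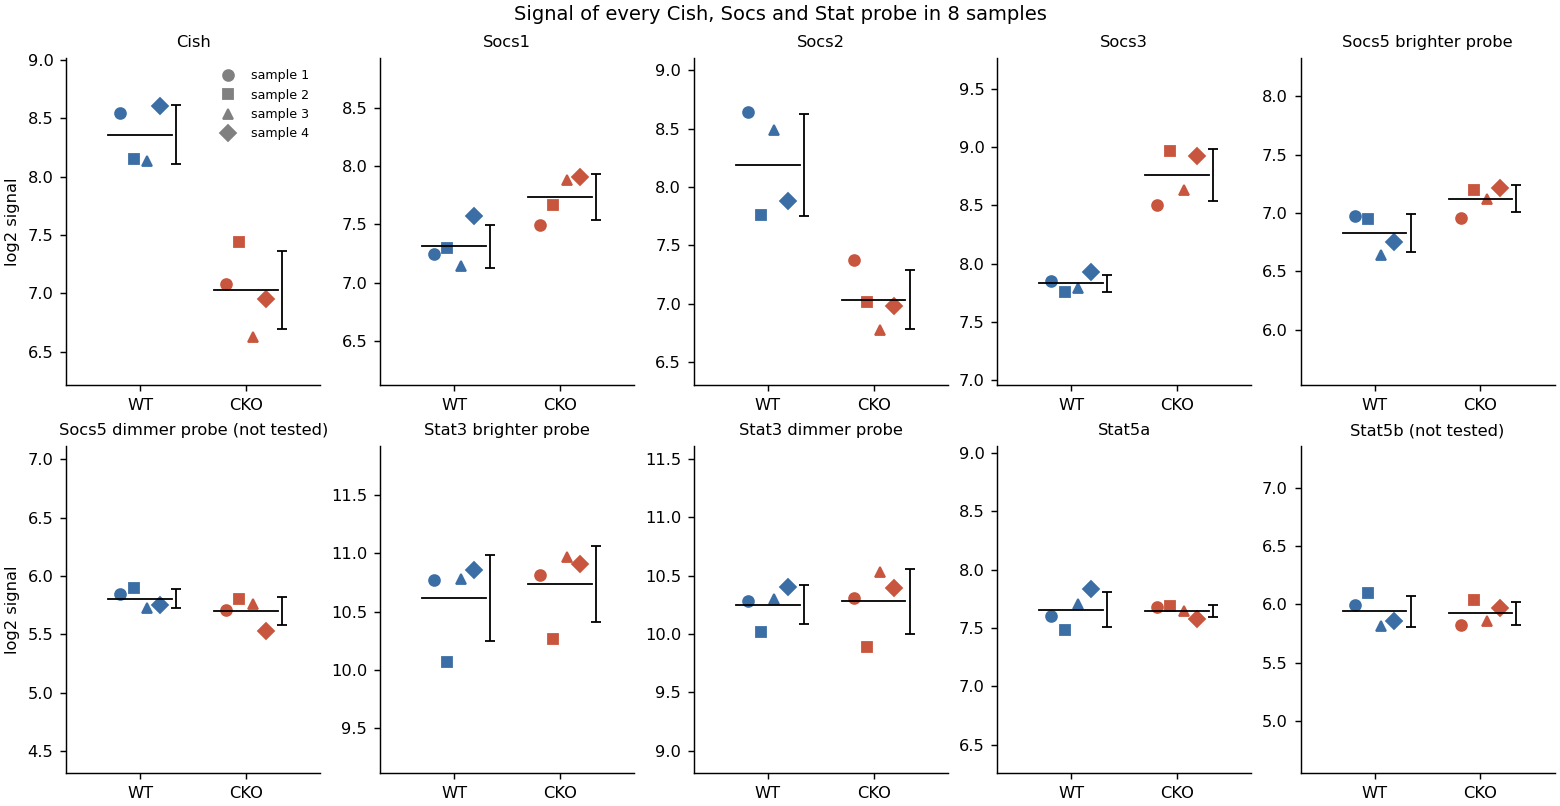
Log2 signal of each of the 10 probes in the 8 samples, with WT in blue and CKO in red. Symbols give the sample number, horizontal lines the group means and bars the SD (n = 4), and every panel spans the same number of log2 units. Cish and Socs2 lie lower and Socs3 higher in all CKO samples, and both Stat3 probes are lowest in the samples numbered 2.

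Cish, which encodes the SOCS protein CIS, an inhibitor of STAT5 signalling and of T cell receptor signalling, fell. Its signal was 8.55, 8.15, 8.13 and 8.60 in WT1 to WT4 and 7.08, 7.44, 6.63 and 6.95 in CKO1 to CKO4. The lowest WT sample stood 0.692 above the highest CKO sample, CKO2, and CKO3 was lowest. The mean went from 8.36 ± 0.25 to 7.03 ± 0.33 (SD, n = 4 each). The difference was -1.33 log2 (SE 0.18, limma adjusted p = 0.0026), or 2.52-fold lower with a 95% interval of 1.91 to 3.31. Against the WT sample of the same number, the difference was smallest in number 2, at -0.712, and -1.47, -1.50 and -1.65 in numbers 1, 3 and 4. In bulk samples such as these, fewer cells with a transcript and less transcript per cell cannot be told apart.

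Socs2, whose protein is best known as the brake on growth hormone signalling through STAT5, fell as well. It read 8.64, 7.76, 8.49 and 7.88 in WT1 to WT4 and 7.37, 7.02, 6.77 and 6.98 in CKO1 to CKO4. The WT samples spread widely, with WT1 and WT3 high and WT2 and WT4 closer to CKO, and the gap between the groups was 0.391. The mean went from 8.19 ± 0.44 to 7.03 ± 0.25 (SD, n = 4 each). Socs2 was thus 2.23-fold lower, with a 95% interval of 1.62 to 3.07 (log2 difference -1.16, SE 0.21, limma adjusted p = 0.0098).

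Socs3, which inhibits signalling from the interleukin 6 receptor family and is known from T cells as a restraint on interleukin 12 responses, went the other way. It read 7.85, 7.76, 7.79 and 7.92 in WT1 to WT4, a span narrower than that of Cish or Socs2, and 8.51, 8.96, 8.63 and 8.92 in CKO1 to CKO4. Every CKO sample lay at least 0.581 above the highest WT sample. The mean rose from 7.83 ± 0.07 to 8.76 ± 0.22 (SD, n = 4 each). Socs3 was 1.90-fold higher, with a 95% interval of 1.58 to 2.28 (log2 difference 0.93, SE 0.12, limma adjusted p = 0.00215).

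Socs1, which inhibits Janus kinases directly and restrains interferon gamma and common gamma chain signals, did not pass. It read 7.25, 7.30, 7.14 and 7.57 in WT1 to WT4 and 7.49, 7.66, 7.88 and 7.91 in CKO1 to CKO4. The groups overlapped only through WT4, which lay above CKO1, and each CKO sample exceeded the WT sample of its number, by 0.247 to 0.739. The difference of 0.42 (SE 0.13) had a 95% interval of 0.14 to 0.71 before correction for many tests and an adjusted p of 0.0834 by limma. With the replicate number as a block, Socs1 passed at the same difference (SE 0.11, limma adjusted p = 0.0362).

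Socs5, a SOCS protein linked to interleukin 4 and epidermal growth factor receptor signalling, had 2 probes. On the brighter, WT1 to WT4 read 6.98, 6.95, 6.64 and 6.75 and CKO1 to CKO4 6.96, 7.19, 7.12 and 7.22. CKO1 lay among the WT samples and the other CKO samples above them, for a difference of 0.29 (SE 0.11, 95% interval 0.05 to 0.53, limma adjusted p = 0.149). The dimmer probe, with WT samples at 5.72 to 5.89 and CKO samples at 5.53 to 5.80, lay below the array median.

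**Figure D2:**
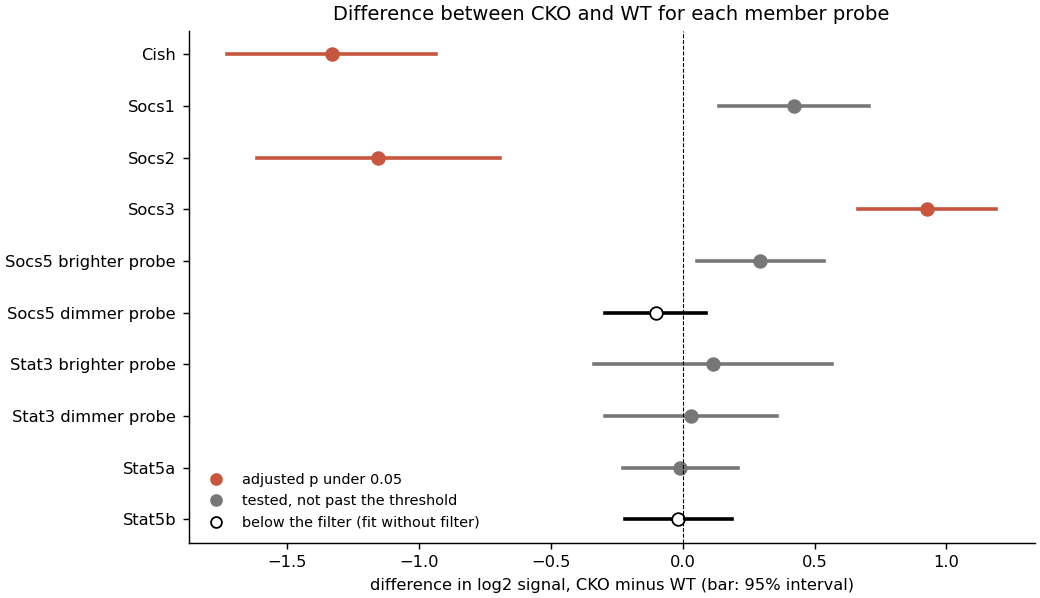
Difference in log2 signal between CKO and WT for each probe (horizontal axis), with bars for the 95% interval before correction for many tests. Red marks an adjusted p under 0.05 and open circles the probes below the brightness limit, whose interval comes from a fit without that limit. Cish at -1.33 and Socs2 at -1.16 lie left of zero, Socs3 at 0.93 lies right, and the Stat intervals span zero.

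The STAT genes themselves showed no difference that passed. Stat3, the transcription factor of IL-6, IL-10 and IL-21 signals, was measured by a brighter and a dimmer probe. On the brighter, WT1 to WT4 read 10.77, 10.07, 10.78 and 10.86 and CKO1 to CKO4 10.81, 10.26, 10.96 and 10.90. On the dimmer, they read 10.29, 10.01, 10.30 and 10.41 in WT and 10.31, 9.89, 10.53 and 10.40 in CKO. On both probes WT2 and CKO2, the samples with low 18S signal, were the lowest of their group, and the part of the 18S level in this was not tested. The differences were 0.12 (95% interval -0.34 to 0.57, limma adjusted p = 0.819) and 0.03 (-0.30 to 0.36, adjusted p = 0.941). Without both samples numbered 2 they were 0.09 and 0.08, with SE of 0.09 and 0.10.

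Stat5a, one of the STAT5 pair that carries interleukin 2, 7 and 15 signals, read 7.60, 7.48, 7.71 and 7.83 in WT1 to WT4 and 7.68, 7.68, 7.65 and 7.57 in CKO1 to CKO4. The CKO samples lay inside the range of WT. The difference was -0.01 (SE 0.10, limma adjusted p = 0.969), and its interval of -0.23 to 0.21 leaves room for a change of up to 1.17-fold lower or 1.15-fold higher. Stat5b, the other STAT5 gene, was dim, with WT samples at 5.82 to 6.10 and CKO samples at 5.82 to 6.04, below the array median.

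Because Cish and Socs3 are known STAT targets, the RefSeq promoter windows of the members (GRCm38.p6, 250 bases before to 50 after an annotated start) were searched on both strands for the STAT motif TTCNNNGAA and for GTGAAAG, the core of the Blimp-1 motif. The table held 8 windows for 6 members, Cish, Socs1, Socs3, Stat3, Stat5a and Stat5b, so Socs2 and Socs5 were not searched. The STAT motif, which reads the same on both strands, was in 2 of the 8, those of Cish and Socs3, and in 8.30% of all 32851 windows. Those 2 follow 5′ to 3′ on the gene's strand up to base 30 of the transcript, with the motif in capitals. They were printed because they held the motif, and both belong to members that passed the test.
Cish, chr9:107296409-107296688, plus strand: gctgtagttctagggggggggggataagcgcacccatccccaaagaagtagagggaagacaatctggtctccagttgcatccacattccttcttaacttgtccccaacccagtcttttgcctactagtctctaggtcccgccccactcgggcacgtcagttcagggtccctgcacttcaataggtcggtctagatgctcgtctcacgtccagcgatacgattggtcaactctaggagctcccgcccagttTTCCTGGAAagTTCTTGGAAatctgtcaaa
Socs3, chr11:117969337-117969616, minus strand: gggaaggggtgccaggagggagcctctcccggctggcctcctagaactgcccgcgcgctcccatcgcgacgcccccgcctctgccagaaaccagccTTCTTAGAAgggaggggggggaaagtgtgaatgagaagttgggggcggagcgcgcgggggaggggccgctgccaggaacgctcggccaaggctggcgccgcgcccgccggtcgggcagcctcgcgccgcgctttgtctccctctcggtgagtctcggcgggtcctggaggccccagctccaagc
Cish held 2 matches that do not overlap, TTCCTGGAA from base 1 and TTCTTGGAA from base 12 of the annotated transcript, and 0.457% of all windows held 2 or more. Socs3 held TTCTTAGAA from base -154. Both windows held this motif, while the signal of Cish fell and that of Socs3 rose. The letters GTGAAAG were in 0 of the 8 windows and in 4.24% of all windows. A match is a description of the letters and not a bound site.

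The profiles most like each changed member were sought among tested probes of other genes, as the smallest root mean square difference over the 8 samples between log2 values set to a WT mean of 0. Nearest to Cish were Fasl, the death ligand of cytotoxic cells (0.144), F2r, a thrombin receptor (0.224), and Ltb4r1, a leukotriene B4 receptor (0.230). Fasl shared with Cish the higher WT1 and WT4, the lowest sample, CKO3, and the highest CKO sample, CKO2. Nearest to Socs2 were Stard10 (0.229), Errfi1, a feedback inhibitor of the epidermal growth factor receptor (0.238), and Anxa1, annexin A1 (0.258). Errfi1 shared with Socs2 the high WT1 and WT3, at 10.29 and 9.80, against 9.21 and 9.33 in WT2 and WT4. Nearest to Socs3 were Capn3, a calpain protease (0.124), Lrrk2, a kinase known from Parkinson disease (0.125), and Ppp1r14b (0.135). Cish and Socs2, though both lower, lay 0.373 apart, and WT4 was the highest WT sample for Cish and among the lower ones for Socs2. Likeness over 8 samples in 2 groups is dominated by the group difference and describes these arrays only.

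**Figure D3:**
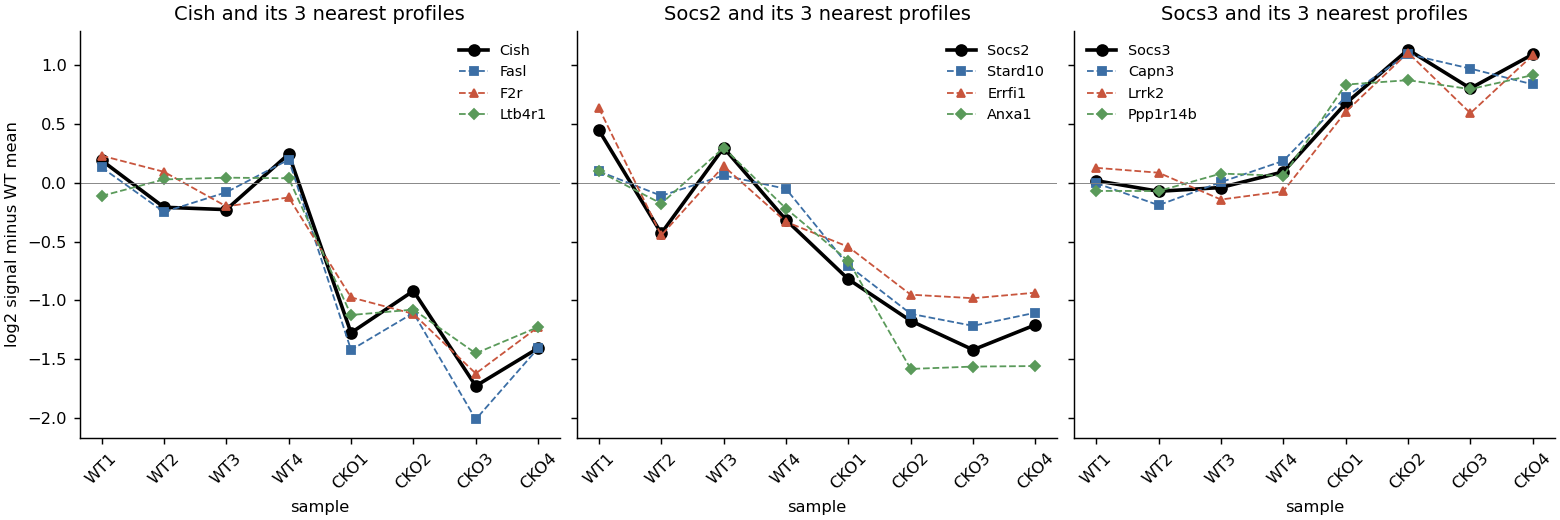
Log2 signal minus the WT mean (vertical axis) in the 8 samples (horizontal axis) for Cish, Socs2 and Socs3 in black and their 3 nearest profiles in colour. Lines join the samples only to guide the eye. The black and coloured lines fall together in CKO for Cish and Socs2 and rise together for Socs3.

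Other genes of the pathway were counted from lists, each gene by its brightest tested probe. Among all 8095 genes tested, 4.73% were higher and 3.04% lower, with a median difference of -0.01. Over the 8 lists together, 55 different genes were tested, of which 8 were higher, 3 lower and 44 did not pass, with a median of 0.02. With the replicate number as a block, 10 were higher and 7 lower, where the same fit had 6.87% of all genes higher and 5.69% lower. Among the higher genes in both counts, Il21 and Lta, described below, exceeded the brightness limit only through CKO. An unadjusted p under 0.05, counted for lists in which no gene passed, was found for 23.3% of all genes tested.

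Partners and upstream kinases did not pass. Of 6 other SOCS genes and parts of the SOCS box ubiquitin ligase (Socs4, Socs6, Socs7, Elob, Eloc and Cul5), 0 passed by limma and 0 had an unadjusted p under 0.05, with differences of -0.20 to 0.11 and a median of 0.01. Of 7 Janus kinases and other STATs, 0 passed by limma and 3 had an unadjusted p under 0.05, with a median of 0.10. Jak1, a kinase used by many cytokine receptors, was at 11.91 ± 0.21 in WT and 11.37 ± 0.26 in CKO, and Tyk2 at 7.74 ± 0.18 and 7.29 ± 0.25 (limma adjusted p = 0.0632 and 0.0918). A second, dimmer Tyk2 probe had a difference of 0.01 (adjusted p = 0.968). Jak1 and the brighter Tyk2 probe passed with the replicate block (limma adjusted p = 0.00926 and 0.0231), for which reason they and the other genes that passed only with it are named after their values were seen.

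Among 10 other negative regulators, 2 were higher and 8 did not pass (median -0.14). Usp18, which dampens type I interferon signalling, rose 2.95-fold from 8.20 ± 0.18 to 9.76 ± 0.67 (limma adjusted p = 0.00936). Sh2b3, the adaptor LNK that restrains Jak2 signalling, rose 1.94-fold from 7.18 ± 0.33 to 8.14 ± 0.11 (limma adjusted p = 0.00621). In both genes all CKO samples lay above all WT samples. For Pias1 and the brighter Pias3 probe all CKO samples lay below all WT samples (limma adjusted p = 0.112 and 0.0971). Groups without overlap were found for 13.7% of all tested probes. With the replicate block Pias1 passed as lower too (difference -0.32, limma adjusted p = 0.0491).

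Among 6 receptor chains that signal through STAT5, 1 was higher and 5 did not pass (median -0.07). That gene was Il7r, the interleukin 7 receptor, which rose 2.79-fold from 10.33 ± 0.29 to 11.80 ± 0.33 (limma adjusted p = 0.00194). A second, dimmer Il7r probe had a difference of 0.63 (adjusted p = 0.35). Il2rb, the chain shared by the interleukin 2 and 15 receptors, was at 10.42 ± 0.29 in WT and 10.24 ± 0.47 in CKO (adjusted p = 0.718). Of 6 receptor chains that signal through STAT3, 0 passed by limma and 1 had an unadjusted p under 0.05 (median 0.11). Of 4 tested cytokines, 2 were higher and 2 did not pass (median 0.38). Csf2, the growth factor GM-CSF, rose 1.97-fold from 6.50 ± 0.18 to 7.48 ± 0.31 (limma adjusted p = 0.00621), and Il21, which signals through STAT3, rose 1.60-fold from 5.89 ± 0.11 to 6.56 ± 0.27 (limma adjusted p = 0.0152). The WT signal of Il21 lay below the array median, so its rise may be understated. Its mean over all samples exceeded the brightness limit of 6.12 only through CKO, so its place in the cytokine counts depends on its rise. The Il21 call was lost without WT1 (limma adjusted p = 0.0519).

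Genes known as STAT5 targets in lymphocytes went both ways: of 13 tested, 3 were higher, 3 lower and 7 did not pass (median -0.09). The list holds no expected direction for each gene, so these counts are not a measure of STAT5 activity. Bcl2, a protein that blocks apoptosis, rose 1.99-fold from 9.16 ± 0.31 to 10.15 ± 0.25 (limma adjusted p = 0.00794), and Bcl6, a repressor linked to memory cells, rose 2.11-fold from 7.65 ± 0.35 to 8.73 ± 0.49 (limma adjusted p = 0.0268). Ccnd3, cyclin D3, fell 2.47-fold from 9.34 ± 0.24 to 8.03 ± 0.49 (limma adjusted p = 0.00749). A second, dimmer Ccnd3 probe did not pass, at -0.65 (adjusted p = 0.0609). Of 6 Bcl2 probes, 3 did not pass, and all 6 differences were above 0, at 0.41 to 0.99. Prf1, perforin, fell 2.75-fold from 9.43 ± 0.62 to 7.97 ± 0.64 (limma adjusted p = 0.0343). The other calls were Lta, higher by 0.45, and Ccnd2, lower at -0.47 (limma adjusted p = 0.0408 and 0.0488). The WT signal of Lta, at 5.99 ± 0.10, lay below the array median and below the brightness limit of 6.12. Lta exceeded that limit only through CKO, so its place among the higher genes depends on its rise. With the replicate block Pim2 passed as well, which made 4 higher (difference 0.58, limma adjusted p = 0.0318). Of 8 genes known as STAT3 targets, 2 were higher, Bcl6 and Il21, which stand on other lists too, and 6 did not pass (median 0.34). Here too, Il21 was in the test only through its CKO samples. With the replicate block Batf passed as higher and Rora as lower (limma adjusted p = 0.0215 and 0.0337), which made 3 higher and 1 lower. With 1 sample left out, several of these calls were lost while the differences kept their direction. Ccnd2 and Lta each lost theirs in 7 of 8 fits (adjusted p = 0.0739 to 0.132 and 0.0557 to 0.13), with differences over all 8 fits of -0.56 to -0.39 and 0.37 to 0.52. Prf1 did not pass when CKO3, WT1, WT3 or WT4 was left out (0.0872 to 0.103) and ranged from -1.77 to -1.16 over the 8 fits. Bcl6 lost its call without WT3, WT4, CKO3 or CKO4 (0.0665 to 0.0772) and ranged from 0.87 to 1.24.

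**Figure D4:**
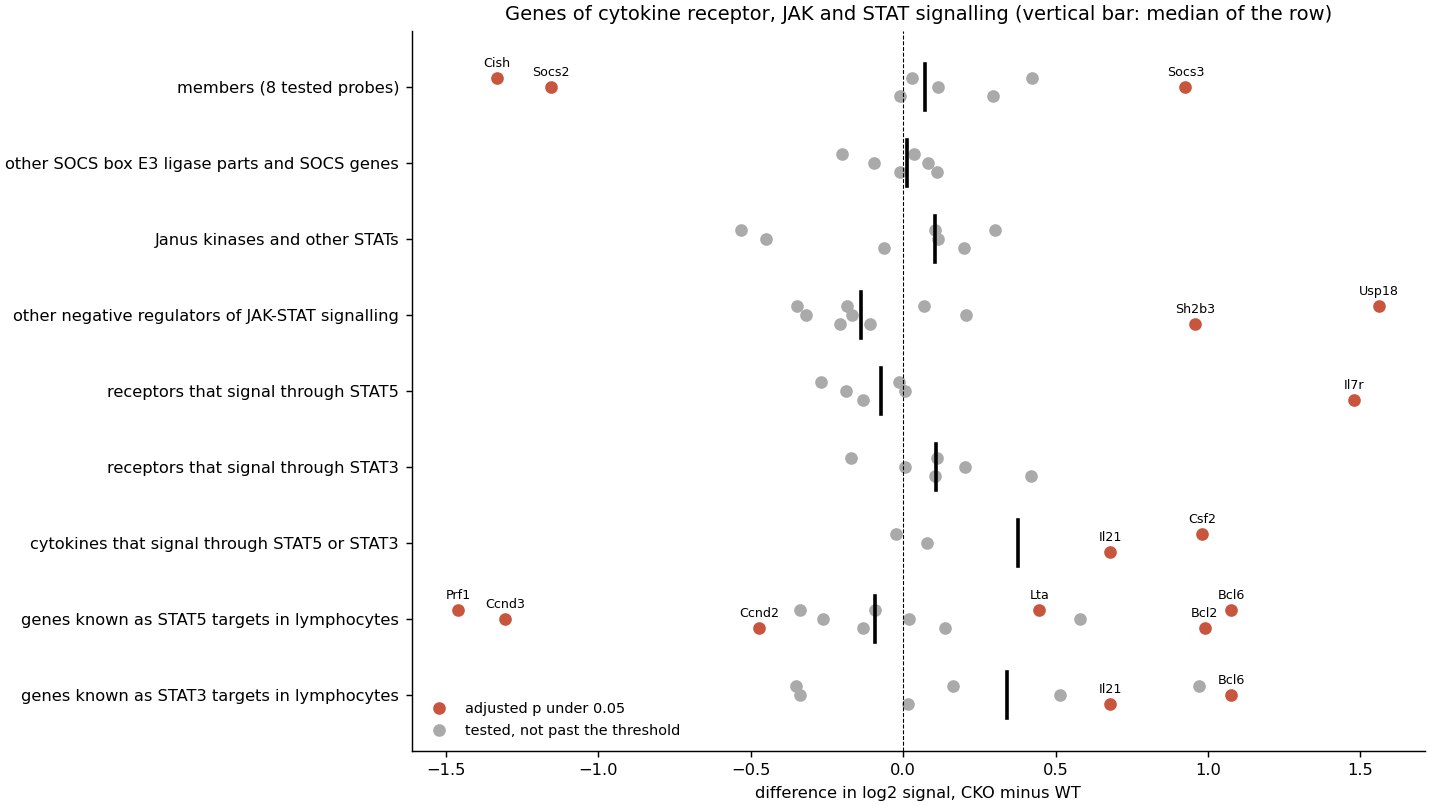
Difference in log2 signal between CKO and WT (horizontal axis) for the 8 tested member probes and for each gene of the 8 lists, by its brightest tested probe. Red points are past the threshold and named, grey points are not, and vertical bars are row medians. Il7r, Usp18 and Csf2 lie to the right with Socs3, while Cish and Socs2 lie to the left with Ccnd3 and Prf1.

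Markers of other cells were summed per list, as log2 of the summed signal. The erythroid list, with 3 markers used (Hba-a1, Alas2 and Slc4a1), ranged from 12.16 to 13.77 in WT, and was 13.76 in CKO1 but 8.80, 7.87 and 8.42 in CKO2, CKO3 and CKO4. Of the 3, 0 passed by limma and 1 had an unadjusted p under 0.05. CKO1, with as much erythroid signal as WT, differed from the WT mean by -1.28 for Cish, -0.82 for Socs2, 0.67 for Socs3 and 0.18 for Socs1. Without CKO1 the differences were -1.35, -1.27, 1.01 and 0.50 in the same order. In CKO1, a single array, Cish, Socs2 and Socs3 lay on the CKO side. The shift was smaller than in the other CKO samples for Socs2, Socs3 and Socs1. In all other samples erythroid signal was high in WT and low in CKO. Its part in the members' differences was not tested and cannot be told apart from that of genotype.

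The other marker lists spanned 12.19 to 12.63 in the WT samples and 12.18 to 12.76 in those of CKO for macrophages (6 of 7 measured), 8.67 to 9.41 and 8.55 to 8.79 for B cells (3 of 6), and 7.83 to 10.11 and 7.72 to 7.88 for natural killer cells (3 of 3). They were at 7.42 to 7.61 and 7.45 to 7.50 for CD4 T cells (3 of 3), 10.02 to 11.50 and 9.83 to 10.32 for dendritic cells (4 of 4), and 9.07 to 10.79 and 8.86 to 9.74 for neutrophils (3 of 4). The natural killer values were set by Klrb1c and the dendritic ones by Itgax. Effector CD8 cells can express both, and which cells carried these transcripts here was not tested. The macrophage values were set mostly by Cst3, so their narrow span does not show the other markers. Lyz2 was at 6.45 to 6.98 in the samples numbered 1 and 2 and at 8.47 to 10.30 in those numbered 3 and 4, highest in CKO4. Adgre1 was at 8.74 in CKO4 and at 6.66 to 7.81 in the other samples. Of 13 tested genes on these 6 lists, 0 passed by limma and 4 had an unadjusted p under 0.05, beside the 23.3% of all genes. The CD8 list (5 of 7 measured) spanned 15.86 to 15.98 in the WT samples and 15.61 to 15.81 in those of CKO, and of its genes the adhesion receptor Cd2 was lower. The part of these cells in the members' differences was not tested.

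**Figure D5:**
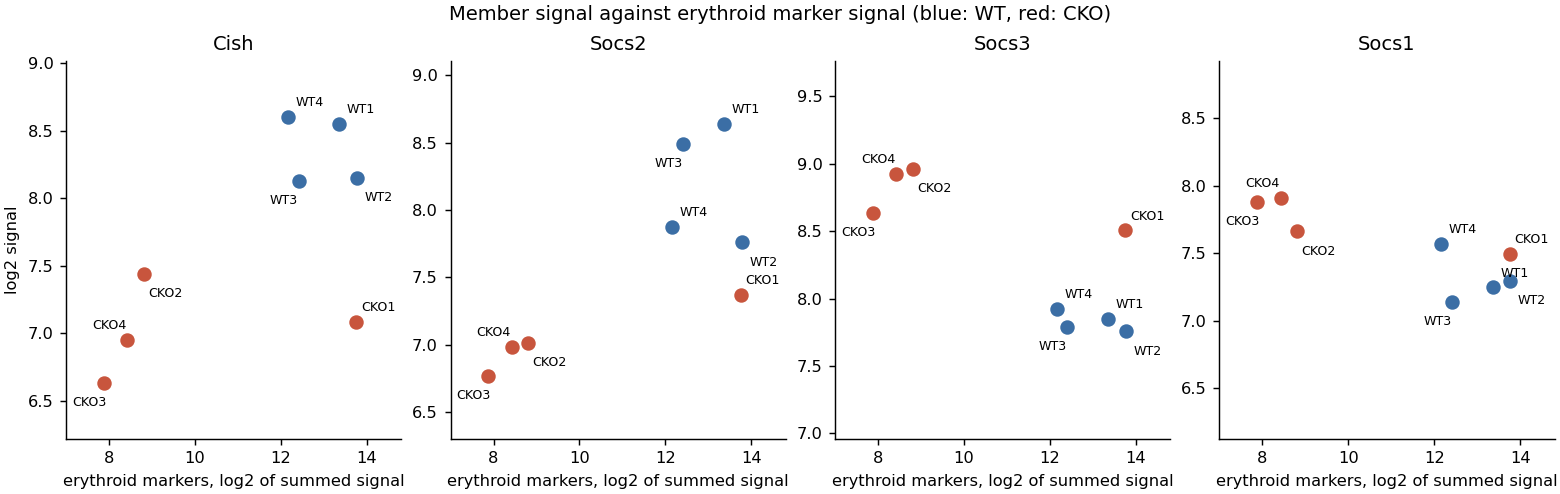
Log2 signal of Cish, Socs2, Socs3 and Socs1 (vertical axes) against the log2 summed signal of 3 erythroid markers (horizontal axes), 1 point per sample, WT in blue and CKO in red. CKO1 shares the high erythroid signal of WT and lies with the other CKO samples for Cish and nearer to WT for Socs1.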

How the data were processed

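Per the labels' protocols, RNA of the 8 sorted samples was amplified and biotinylated with Ambion's IlluminaRNA Amplification Kit. Values of 24048 probes were deposited on a log2 scale, with 0.952% to 1.31% missing per array and 0 missing for the members. The 8 columns have nearly equal medians, while scanner, background correction and normalization method were not given in the sources used here. Precision is limited by the number of arrays.

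Genes were named from the platform annotation and updated by gene identifier, with 19397 probes named to 1 gene each and 4651 unnamed; the name listed for the 18S ribosomal RNA probe was not used. Protein identity was not analysed here. The deposited values were compared with limma 3.58.1 in R 4.3.3 on 11991 probes whose mean exceeded the median probe mean, 6.12. The code was tested on simulated data. Differences are CKO minus WT, and intervals are at 95%. The main fit had no block, as the design text names no pairing. Samples of the same number had deviations from their group means that correlated at 0.326, 0.467, 0.181 and 0.225 over probes. Correlations between unlike numbers were not computed. A fit with the replicate number as a block was 1 alternative, beside others on samples, filter, normalization and settings. Members and lists were chosen with earlier results of these data known. The text names all member probes, Prdm1, at most 4 changed genes per list by size and the 3 profiles nearest to each changed member. Lta, Ccnd2, Pias3 and markers beyond this were named after their values were seen. Il2rb, which did not pass, was also named outside this rule. Promoters were read from RefSeq with Python 3.11.15 and figures drawn with matplotlib 3.10.9.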

Additional observations from a re-analysis of the deposited data

Results flagged for a closer look

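Each member probe was checked in each group of 4 samples for a sample far from the rest, 20 checks in all, of which chance would mark about 1 in 20. On the brighter Stat3 probe, WT2 lay at 10.07 while the nearest WT sample lay at 10.77, a gap of 89.2% of the range of the group. CKO2 was also the lowest CKO sample on that probe, at 10.26. The 18S signal was low in the same 2 samples, and its part in the Stat3 values was not tested.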

How the results depend on the processing

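Cish, Socs2 and Socs3 kept their direction under all 20 alternatives run for each and stayed past the threshold in 19; the exception was samples 1 and 2 alone, at -1.09, -1.01 and 0.93, where 13 probes in all were higher and 8 lower. With 1 sample left out they ranged from -1.47 to -1.20, -1.30 to -1.01 and 0.86 to 1.01. With the replicate block Socs1 passed at 0.42, and 749 probes were higher and 611 lower, against 495 and 305 without it; 796 of the 800 calls remained, and the block changed no other member's call. In samples 3 and 4 alone the brighter Socs5 probe passed at 0.47, and 553 probes were lower. Without both samples numbered 1, 223 probes were higher and 120 lower, and without both numbered 2, 464 were lower. With 1 sample left out the counts ran from 242 to 559 higher and 121 to 427 lower: 286 and 165 without WT1, 312 and 202 without WT3, 242 and 121 without CKO3, 325 and 167 without CKO4. Differences near 0 changed sign. The brighter Stat3 probe ran from -0.068 (without WT2) to 0.27, the dimmer from -0.053 to 0.16 (below 0 without WT2, CKO3 or CKO4, and at -0.050 in samples 1 and 2 alone) and Stat5a from -0.068 to 0.049 (above 0 without WT3, WT4 or CKO4, and at 0.14 in samples 1 and 2 alone). The cause of these shifts was not tested. The dimmer Socs5 probe and Stat5b had a test only without the brightness limit, where neither passed (limma adjusted p = 0.728 and 0.975). The brighter Socs5 probe was below the stricter limit of 7 and has no value there.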
